A study of Mus musculus with 24 samples.

Results

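H3K4me1, histone H3 with 1 methyl group on lysine 4, was compared between mouse embryonic stem (ES) cells and the embryoid bodies (EB) grown from such cells, in wild type. The comparison rests on the 4 wild-type H3K4me1 libraries of a CUT&RUN series of 24, with 2 libraries per stage, called ES1, ES2, EB1 and EB2 here after the replicate numbers of their titles. All 4 came from the C57BL/6 background. ES cells were grown on Matrigel with LIF in Knock-out DMEM with 5% FBS and 15% KSR, and EB were taken at day 6 in Knock-out DMEM with 10% FBS and no LIF named. CUT&RUN cuts chromatin with a nuclease held by an antibody, here an H3K4me1 antibody (abcam ab8895), and the released fragments are sequenced. The other 20 libraries held H3K4me1 in the Prdm16 KO, H3K4me2 in both genotypes and PRDM16 in both genotypes, with 2 libraries for each stage. The labels do not say whether the 2 libraries of a stage came from separate cultures, so a test over libraries speaks of these libraries alone, and the spread it uses may be technical. EB hold several cell types, and more cells of a type cannot be told apart from more of the mark per cell.

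Overlapping peaks of the 4 lists on chromosomes 1 to 19, X and Y were merged into 33372 regions. A region with a peak in both ES lists and neither EB list is called ES-only, the reverse EB-only. There were 5412 ES-only regions (16.2% of all regions) and 4678 EB-only regions (14%), and 1700 regions had a peak in all 4 lists. A region without a peak is one where none was called, which is not the same as absence of the mark.

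H3K4me1 is deposited at enhancers, largely by the KMT2C and KMT2D methyltransferases, and also flanks promoters, where the fully active state carries H3K4me3 instead. Enhancers gain and lose H3K4me1 as cells change identity, and many developmental genes carry it before they are transcribed. On leaving LIF, ES cells give up naive pluripotency, and in EB they start to form neuroectoderm, mesoderm and endoderm.

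4 promoters are shown first, because promoters under ES-only and EB-only regions differed in CG dinucleotides, as described further on. They belong to genes of the lists used here, lay whole inside a stage-only region and had the highest-ranked scores among such promoters, 2 per stage. Each runs from 250 bases before to 50 bases after the annotated start (RefSeq, GRCm38.p6), and capitals mark CG dinucleotides.
Wnt3 promoter: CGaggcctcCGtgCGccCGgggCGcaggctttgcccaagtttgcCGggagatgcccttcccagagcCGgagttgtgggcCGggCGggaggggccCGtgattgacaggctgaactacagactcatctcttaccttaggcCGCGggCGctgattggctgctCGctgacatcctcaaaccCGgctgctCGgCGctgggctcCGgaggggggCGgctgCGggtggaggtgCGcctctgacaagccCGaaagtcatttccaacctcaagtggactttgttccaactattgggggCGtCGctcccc
Ascl2 promoter: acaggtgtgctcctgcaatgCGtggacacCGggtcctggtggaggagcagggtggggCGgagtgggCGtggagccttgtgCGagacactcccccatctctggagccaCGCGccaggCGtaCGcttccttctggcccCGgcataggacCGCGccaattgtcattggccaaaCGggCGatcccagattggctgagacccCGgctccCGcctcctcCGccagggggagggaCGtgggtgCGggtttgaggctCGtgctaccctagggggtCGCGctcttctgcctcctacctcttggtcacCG
Meis3 promoter: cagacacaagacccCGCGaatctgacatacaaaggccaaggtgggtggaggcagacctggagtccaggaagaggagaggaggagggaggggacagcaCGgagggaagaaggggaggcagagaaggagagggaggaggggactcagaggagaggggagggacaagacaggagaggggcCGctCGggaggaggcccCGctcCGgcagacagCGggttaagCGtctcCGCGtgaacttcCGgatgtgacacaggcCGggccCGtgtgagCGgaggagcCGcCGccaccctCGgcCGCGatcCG
Myh7 promoter: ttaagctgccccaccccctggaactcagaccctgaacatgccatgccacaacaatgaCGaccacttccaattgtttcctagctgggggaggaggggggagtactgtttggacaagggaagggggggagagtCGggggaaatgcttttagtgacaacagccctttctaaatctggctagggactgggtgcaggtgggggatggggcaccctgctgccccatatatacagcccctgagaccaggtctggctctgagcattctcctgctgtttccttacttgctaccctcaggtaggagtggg

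Wnt3, a signal that starts the primitive streak, has its promoter at chr11:103773925-103774224 on the plus strand, with 24 CG dinucleotides. It lay in the ES-only region chr11:103769756-103774941, whose scores were 197.03 in ES1 and 176.91 in ES2. The gene also had an EB2 peak within 2500 bp of a gene end, so it is not among the ES-only genes counted below. The promoter of Ascl2, a trophoblast and Wnt-target transcription factor, at chr7:142969215-142969514 on the minus strand, held 23 and had scores of 147.53 and 148.6. On the EB side, the promoter of Meis3, a partner of Hox proteins, at chr7:16175145-16175444 on the plus strand, held 21 CG dinucleotides, with scores of 230.23 in EB1 and 223.81 in EB2. The promoter of Myh7, a myosin heavy chain of heart muscle, at chr14:54994500-54994799 on the minus strand, held 2, with scores of 138.48 and 164.25. The score is the authors' own value for each peak, of unstated unit, and serves here only to rank peaks within a list.

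Both stages had similar numbers of peaks but mostly different places. The lists held 15435 peaks in ES1, 12746 in ES2, 14082 in EB1 and 13260 in EB2. The mean was 14090.5 ± 1901 in ES and 13671 ± 581 in EB (SD, n = 2 each), and the ES and EB values overlapped (difference 0.04 on the log2 scale, two-sided exact permutation p = 1). With 2 libraries against 2, the smallest p such a test can give is 0.333, so no comparison over these 4 libraries can pass 0.05. The peaks covered 35.4, 32.7, 31.3 and 26.2 Mb in ES1, ES2, EB1 and EB2, so that both ES lists covered more than either EB list (exact permutation p = 0.333). Median peak widths were 1868 and 2172 bp in ES and 1803 and 1515 bp in EB. The lists carry no read totals, so the depth behind each is unknown. All 4 libraries belong to 1 library series of the titles.

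Between libraries of the same stage, 53.1% to 67.8% of one list's peaks overlapped a peak of the other list. Between stages the share was 22.1% to 25.9%, so the ranges did not overlap. The same separation showed in the regions. The ES-only and EB-only counts stood beside the other ways of choosing 2 of the 4 libraries, each of which pairs 1 ES with 1 EB library. Those held 426 regions (ES1 and EB1), 381 (ES1 and EB2), 294 (ES2 and EB1) and 222 (ES2 and EB2). Of the 8611 regions marked in both ES lists, 62.8% were marked in no EB list, 17.4% in 1 and 19.7% in both. Of the 7453 regions marked in both EB lists, 62.8% were marked in no ES list, 14.4% in 1 and 22.8% in both. Stage-only counts rest on presence in both lists of a stage. With ES1 or ES2 left out, 8629 or 10768 regions were ES-only, and with EB1 or EB2 left out, 9135 or 9787 were EB-only.

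**Figure D1:**
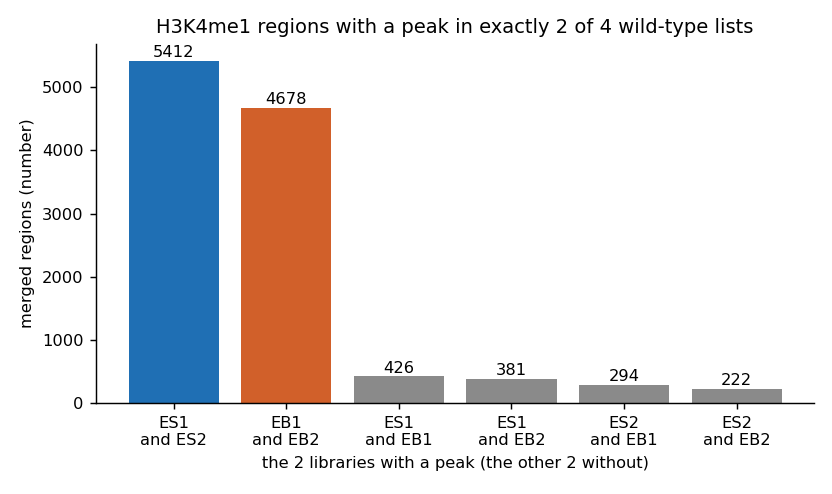
Number of merged H3K4me1 regions (vertical axis) with a peak in exactly 2 of the 4 wild-type lists, for each choice of 2 lists (horizontal axis). The ES pair (5412, blue) and the EB pair (4678, orange) stand above the 4 mixed pairs (grey), which held 222 to 426 regions.

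Regions with higher scores were shared between stages more often. Among regions marked in both ES lists, the ES-only share went from 70.8% in the lowest of 5 equal groups by score rank to 50.9% in the highest, and the share marked in all 4 lists from 13.0% to 30.5%. Among regions marked in both EB lists, the EB-only share went from 67.3% to 56.5%. Median width rose over the same groups, from 2645 to 3513.5 bp in ES and from 2477 to 3444 bp in EB. A region takes the score of its highest peak in a list, and the part of merging in this trend was not tested. Widths were of merged regions, and a region in all 4 lists joins more peaks than a stage-only one, which by itself makes it wider. The median width was 2770 bp for ES-only, 2598 bp for EB-only and 4090 bp for regions in all 4 lists. Their highest scores were 322.9 in ES1 and 353.28 in EB1, against 2051.79 and 2113.55 for regions in all 4 lists.

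ES-only regions lay nearer to genes than EB-only regions. A region was placed at a gene end when it came within 2500 bp of either end of a protein-coding gene. That held for 1509 ES-only regions (27.9%), 903 EB-only regions (19.3%) and 615 regions in all 4 lists (36.2%), against 26.7% of all regions. EB-only regions were more often inside genes away from their ends (42.4% against 39.0%) or outside genes (38.3% against 33.1%). The median distance to the nearest gene end was 11970.5 bp for ES-only, 27836 bp for EB-only and 11044 bp for regions in all 4 lists. Beyond 50 kb from any gene end lay 19.6% of ES-only and 35.9% of EB-only regions. The difference of 8.58 percentage points at gene ends grew to 15.4 with a window of 10000 bp and was 3.74 when only annotated transcription starts were counted.

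Whole lists showed the same order as the stage-only regions drawn from them. Of the peaks, 29.9% in ES1, 30.7% in ES2, 24.4% in EB1 and 24.1% in EB2 lay at a gene end. The mean was 30.3 ± 0.599% in ES and 24.3 ± 0.215% in EB (SD, n = 2 each). The difference of 6.06 percentage points was larger than the spread within either stage, with both ES lists above both EB lists (exact permutation p = 0.333, the smallest possible). Peaks outside genes made up 32.5% and 32.8% in ES and 36.6% and 36.5% in EB. The wider peaks of the ES lists move with this result, and the part of width in it was not tested.

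**Figure D2:**
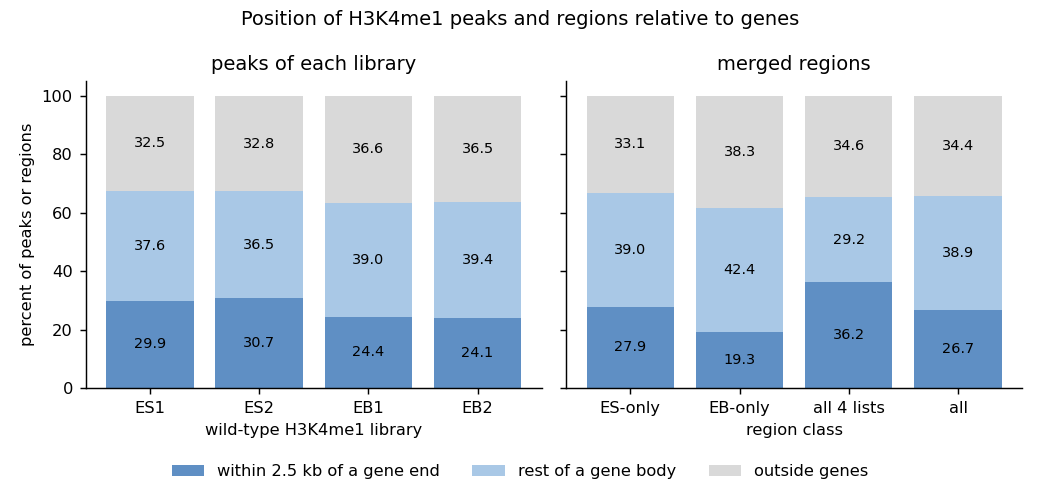
Percent of peaks in each wild-type H3K4me1 list (left) and of merged regions in each class (right) that lay within 2.5 kb of a gene end, elsewhere in a gene body, or outside genes. Gene ends took 29.9% and 30.7% of ES peaks and 24.4% and 24.1% of EB peaks, and 27.9% of ES-only against 19.3% of EB-only regions.

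Promoters under H3K4me1 peaks were richer in CG dinucleotides in ES than in EB. Windows of 300 bases were taken for 21262 promoters, which cover 17491 of the 21883 protein-coding genes. At least 10 CG dinucleotides were present in 71.8% of promoters under ES1 peaks, 73.2% under ES2, 59.7% under EB1 and 58.3% under EB2. The mean was 72.5 ± 1.03% in ES and 59.0 ± 0.97% in EB (SD, n = 2 each), 13.5 percentage points apart, with no overlap between stages (exact permutation p = 0.333). With at least 5 CG dinucleotides as the threshold, chosen after seeing the data like the next, the difference was 6.61 points, and with at least 15 it was 12.3. Over all promoters the share was 56.7%. The 556 promoters under ES-only regions had a median of 17 CG dinucleotides and 74.6% with at least 10, while the 379 under EB-only regions had a median of 10 and 50.1%. The H3K4me1 lists of the KO, which chose no region here, gave 68.6% and 68.9% in ES and 51.0% and 52.3% in EB. In wild-type H3K4me2 lists the share was 86.0% and 86.4% in ES and 87.5% and 85.5% in EB, so the stages overlapped. In KO H3K4me2 lists it was 83.9% and 84.05% in ES and 88.5% and 88.1% in EB, the order opposite to that of H3K4me1.

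The 12 histone libraries that had no part in choosing the regions separated the same regions by stage. In the H3K4me1 lists of KO ES cells, 73.3% and 69.9% of ES-only regions and 7.93% and 7.85% of EB-only regions had a peak. KO EB lists had a peak at 6.67% and 4.27% of ES-only and at 37.8% and 28.8% of EB-only regions. Those EB lists were short, with 8943 and 5990 peaks against 14945 and 13901 in KO ES. In wild-type H3K4me2 lists, a mark of enhancers and promoters, ES libraries had peaks at 62.8% and 57.2% of ES-only and at 16.4% and 14.8% of EB-only regions. The wild-type EB H3K4me2 lists had them at 17.9% and 23.1% of ES-only and at 24.4% and 43.8% of EB-only regions, and the higher EB value came from a library of another library series. In KO H3K4me2 lists, ES libraries had peaks at 66.6% and 72.3% of ES-only against 19.4% and 21.9% of EB-only regions. EB libraries of that set showed almost no preference, with 19.1% and 17.5% of ES-only and 19.6% and 18.3% of EB-only regions.

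The preference of each library was taken as its percent of ES-only regions minus its percent of EB-only regions. It was 42.4 to 65.4 points in the 6 ES libraries (mean 52.3 ± 9.26, SD) and -31.1 to -0.417 points in the 6 EB libraries (mean -14.0 ± 13.1). All 6 ES libraries lay above all 6 EB libraries. The difference of 66.3 points had a two-sided exact permutation p of 0.00926, with stage permuted within antibody and genotype, which is the smallest value that 216 assignments allow. With lists cut to equal length within each antibody and genotype, the difference was 40.8 points (exact permutation p = 0.00926). Without the KO H3K4me1 libraries it was 53.7 points (exact permutation p = 0.0556, the smallest possible there). At regions away from gene ends it was 72.5 points. At single regions, 52.5% of ES-only regions were ES-only again in the KO H3K4me1 lists, and 16.7% of EB-only regions were EB-only again. Of the regions in all 4 wild-type lists, 24.6% were ES-only and 1.88% EB-only in those KO lists. The 2 recurrence shares are therefore not on an equal footing, since the KO lists gave the ES-only pattern more often there too. For 48.1% of EB-only and 14.1% of ES-only regions, no KO H3K4me1 list had a peak.

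**Figure D3:**
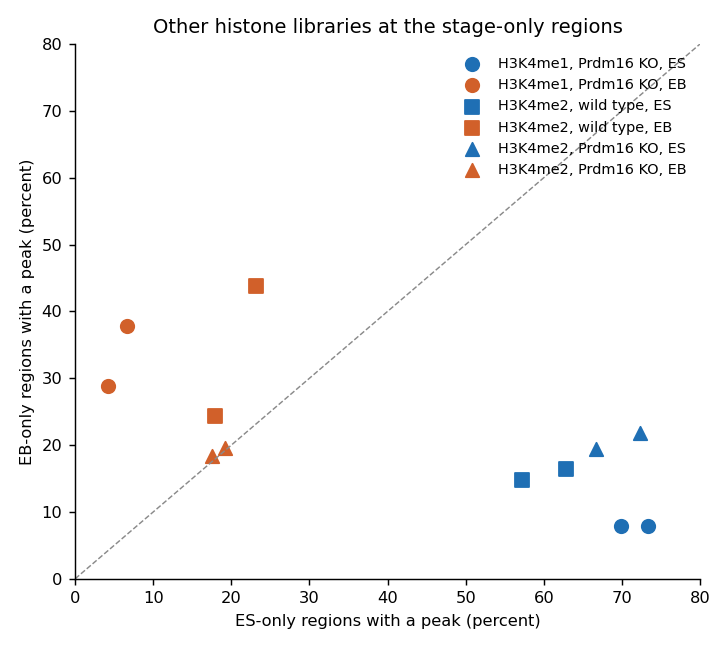
Percent of ES-only regions (horizontal axis) and of EB-only regions (vertical axis) with a peak in each of the 12 histone libraries that did not define them, with ES libraries in blue and EB libraries in orange, and equal percentages on the dashed line. All 6 ES libraries lie far below the line, and the 6 EB libraries lie on or above it, those of H3K4me2 in KO closest to it.

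PRDM16 peaks, of which each list held 146 to 586, touched few of these regions. A peak of any of the 8 PRDM16 lists, KO included, lay in 67 ES-only regions (1.24%), 34 EB-only regions (0.727%) and 60 regions of all 4 lists (3.53%), against 1.10% of all regions.

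The highest-ranked ES-only regions at gene ends lay at Tmem123, Ngly1, Kdm7a, Tdg, Otx2, Nxpe2, Akr1b10, Nkx2-9, Efnb1, Mfsd10, Sgms2 and Nlrc3. They were ranked by the lower of the 2 score percentiles. Kdm7a is a histone demethylase, and its region chr6:39130436-39134208 had scores of 249.77 and 333.51. Tdg, the thymine DNA glycosylase of active DNA demethylation, had scores of 289.23 and 236.93 at chr10:82650219-82653516. Otx2, a transcription factor of the primed epiblast and the anterior brain, had scores of 229.99 and 243.94 at chr14:48651019-48656387. All 3 regions were ES-only in the KO H3K4me1 lists too. Of the 12, 10 had that pattern, the exceptions being Nkx2-9 and Nlrc3, each with 1 EB list added.

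Farther from gene ends, the highest-ranked ES-only regions included those with nearest gene Orc5, Sntb1, Wasl, Clec16a, Il17f, Klhl3, Peli2, D16Ertd472e, Myb, Ryr2 and Map4k3. The first lay outside genes, 22006 bp from Orc5, a subunit of the origin recognition complex, at chr5:22572344-22575409, with scores of 322.9 and 375.09. The one in Sntb1, a syntrophin of the dystrophin complex, lay in the gene body at chr15:55876783-55878546, with scores of 309.96 and 349.08. The region nearest to Peli2, chr14:48097730-48100045, had scores of 275.82 and 247.59, and all 6 ES lists of the other histone sets held a peak there. Of the 12 highest-ranked, 11 were ES-only in the KO H3K4me1 lists, and that in Ryr2 had 1 EB list added. A nearest gene names a place, and no link between region and gene was measured.

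The highest-ranked EB-only regions at gene ends lay at Meis3, Hes3, Zfp9, Serpinf1, Fam163a, Zp2, Znrf2, Bcl9, Ddi1, Rph3al, Gm34296 and Adtrp. The Meis3 region, chr7:16171575-16175738, had peaks in both KO EB H3K4me1 lists and neither KO ES list. It lay in all 8 H3K4me2 lists of both stages. Hes3, a repressor of the Hes family in neural progenitors, had scores of 256.07 and 199.95 at chr4:152289597-152295045. None of the 12 other histone lists held a peak there, so this region rests on 2 libraries alone. The region of Serpinf1, which encodes pigment epithelium-derived factor, at chr11:75419689-75423107, had scores of 192.63 and 200.93. It was shared by 2 KO ES lists, 1 of H3K4me1 and 1 of H3K4me2. Of the 12, 5 were EB-only in the KO H3K4me1 lists, namely those at Meis3, Zfp9, Fam163a, Ddi1 and Gm34296.

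EB-only regions farther away had as nearest gene Tjp1, 4930519G04Rik, Nrxn3, Tom1l1, Klhl14, Foxa2, Tspan12, Cntnap5a, 4930544G11Rik, Chrnb4, Col1a2 and Ate1. The one nearest to Foxa2, a transcription factor of endoderm and floor plate, lay 163872 bp away at chr2:147875996-147879005, with scores of 248.49 and 242.19, and both KO EB H3K4me1 and both wild-type EB H3K4me2 lists held it while no ES list did. The region in Nrxn3, a synaptic adhesion gene, lay 260120 bp from its ends at chr12:88982821-88986405, with scores of 325.89 and 249.9. The region in Tspan12, chr6:21838453-21841077, had scores of 353.28 and 241.05 and was held by all 6 EB lists of the other histone sets and by no ES list. The region 46578 bp from Col1a2, a type I collagen gene, at chr6:4454372-4459040, had scores of 234.6 and 263.89. The Tjp1 and Tom1l1 regions had a peak in all 4 KO H3K4me1 lists, ES included. Those of Cntnap5a, 4930544G11Rik and Chrnb4 were each held by only 1 EB list of the other histone sets. The region nearest to Ate1 was held by 3 such EB lists and 4 ES lists. Of the 12, 5 were EB-only in the KO H3K4me1 lists.

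Some genes had many stage-only regions nearest to them. ES-only regions were most numerous at Camk1d (8), then at Zbtb7c, Zfhx3, Wwox and Pde4d (7 each), of which Pde4d spans 1302 kb. EB-only regions were most numerous at Zfp608 (11), Zfp521 (10), and Bcl11a, Med13l, Bach2, Maml3 and Tenm4 (9 each). Bcl11a and Bach2 are transcription factors of blood lineages, and Bcl11a also acts in neurons. Bach2 had 4 and 5 peaks within 50 kb of its span in ES and 13 and 15 in EB. Myt1l, a neuronal transcription factor with 7 EB-only regions, had 0 and 0 in ES and 3 and 5 in EB. Sall1 and Cited2, developmental regulators with short gene spans, each had 7 EB-only and 2 ES-only regions. Long genes and genes beside deserts are nearest to more regions, and no correction for that was made.

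Genes were then counted. A gene was marked in a list when a peak came within 2500 bp of either end. Of 21883 protein-coding genes, 1460 were marked ES-only (6.67%), 803 EB-only (3.67%), 814 in all 4 lists (3.72%) and 12979 in none. Leaving out ES1 or ES2 gave 2347 or 2729 ES-only genes, and leaving out EB1 or EB2 gave 1518 or 1671 EB-only genes. In the KO H3K4me1 lists, 44.3% of the ES-only genes were ES-only again, against 8.13% of all genes. Of the EB-only genes, 16.7% were EB-only again there, against 1.55% of all genes. In wild-type H3K4me2 lists the shares were 11.7% against 4.30% for ES-only and 9.09% against 3.30% for EB-only genes. To include distal peaks, peaks within 50 kb of the gene span were also counted. Both ES lists exceeded both EB lists at 4335 genes (19.8%) and the reverse held at 2234 (10.2%). By kilobases covered instead of peak number, the counts were 6831 (31.2%) and 3195 (14.6%). Leaving out ES2 raised the first count of peaks to 7137, and the second was 3634 without ES1, 3482 without EB1 and 3713 without EB2. The counts of the gene lists that follow are descriptions beside these shares.

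Naive pluripotency genes did not go one way. Of 28, 4 were ES-only at a gene end, 3 were EB-only, 1 was marked in all 4 lists and 11 in none. The ES-only ones were Zfp42 (Rex1), Tcl1, Dppa3 (Stella) and Stat3, the transcription factor activated by LIF. The EB-only ones were Nanog, Prdm14 and Lifr, the LIF receptor. Nanog had 1 and 0 peaks within 50 kb in ES and 2 and 3 in EB, and its region chr6:122712412-122717705 had scores of 62.29 in EB1 and 232.38 in EB2. It was EB-only in the KO H3K4me1 lists too. At gene ends in those lists, Zfp42 and Tcl1 were ES-only again, but the other 4 genes did not keep their call. Dppa3 had a peak in KO ES1 alone and Stat3 in KO ES1 and EB2. Prdm14 had one in KO EB2 alone, and Lifr in KO ES1 and EB1. Zfp42 had 2 and 1 peaks within 50 kb in ES and 0 and 0 in EB. The 11 without a gene-end peak in any of the 4 lists included Pou5f1, the Oct4 gene, Klf2, Tbx3, Nr0b1, Dppa2 and Dppa4. Klf2, a naive pluripotency factor, nevertheless had 10.8 and 8.35 kb under peaks within 50 kb in ES and 0 in both EB lists. Within 50 kb, 6 of 28 were higher in ES and 3 in EB by peak number, and 11 and 4 by kilobases covered. These markers thus do not identify the stages by gene-end peaks, and the labels were taken as given.

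Primed epiblast genes, which mark the state after the naive one, included 3 ES-only genes, 1 EB-only gene and 1 in all 4 lists, of 15. Otx2 had 5 and 2 peaks within 50 kb in ES and 0 and 0 in EB. Dnmt3b, a de novo DNA methyltransferase, had 10.8 and 12.1 kb under peaks in ES and 1.47 and 0 kb in EB. Sall2 was the other ES-only gene. Sox3, a SoxB1 factor of epiblast and neural cells, had 0 and 0 peaks in ES and 3 and 2 in EB. Within 50 kb, 4 of the 15 genes were higher in ES and 5 in EB by peak number, and 5 and 5 by kilobases covered. Besides Sox3, those higher in EB were Fgf5, Dnmt3a, Lin28b and Tcf7l1. Lin28b, an inhibitor of let-7 maturation, had 1 and 0 peaks in ES and 5 and 4 in EB, and Dnmt3a, the partner enzyme of Dnmt3b, had 2 and 3 in ES and 4 and 5 in EB.

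Lineage genes had stage-only peaks on both sides. Among 26 neuroectoderm genes, Sox1 was ES-only and Rax and Hes3 were EB-only. Sox1, an early neural marker, had 17.7 and 11.9 kb under peaks within 50 kb in ES and 0 kb in both EB lists. Of 26 primitive streak and mesoderm genes, Foxc2 and Prrx1 were ES-only and Snai1 and Tcf15 EB-only, and Eomes was marked in all 4 lists. Within 50 kb, 6 of the neuroectoderm genes were higher in ES and 2 in EB by peak number, and 9 and 5 by kilobases covered. Of the streak and mesoderm genes, 6 were higher in ES and 0 in EB by peak number, and 10 and 1 by kilobases covered.

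Of 18 cardiac genes, 3 were ES-only and 3 EB-only. The ES-only ones were Nkx2-5 and Gata4, transcription factors of heart formation, and Myl7, an atrial myosin light chain. The EB-only ones were Gata5, Myh7 and Tnnt2, the last 2 encoding sarcomere proteins. Myh7 was EB-only in the KO H3K4me1 lists too. Gata5 was marked there in ES1 alone, and in all 4 wild-type H3K4me2 lists. Of the ES-only genes, Nkx2-5 and Myl7 were marked in KO H3K4me1 in ES1 alone, and Gata4 in no list. Nkx2-5 was also marked in all 4 wild-type H3K4me2 lists. None of the 12 other histone lists held a peak in the Tnnt2 region. Myh7 had 2 and 0 peaks within 50 kb in ES and 3 and 3 in EB, and Nkx2-5 had 2 and 2 in ES and 0 and 0 in EB. Gata4 was ES-only at its end but had 3 and 3 peaks in ES against 5 and 4 in EB across its neighbourhood. Within 50 kb, 8 of the 18 cardiac genes were higher in ES and 3 in EB by peak number, and 10 and 4 by kilobases covered. Of 20 blood and endothelial genes, Etv2, Fli1, Cdh5 and Sox18 were ES-only. Kdr, the VEGF receptor of early mesoderm and endothelium, was EB-only, with no peak within 50 kb in either ES list and 3 in each EB list. The gene was EB-only in the KO H3K4me1 lists as well. Within 50 kb, 2 genes of this list were higher in ES and 5 in EB by peak number, and 4 and 4 by kilobases covered. Runx1, a transcription factor of blood formation, had 2 and 3 peaks in ES and 8 and 9 in EB. Fli1, ES-only at its end, had 2 and 1 in ES and 4 and 3 in EB.

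Of 22 endoderm genes, Foxa2, Lamb1, Shh and Cxcr4 were ES-only and Foxa3 EB-only. The Foxa2 gene itself carried 2 ES-only regions, chr2:148037913-148041072 and chr2:148043511-148046848, apart from the distant EB-only region described above. Within 50 kb, 5 endoderm genes were higher in ES and 4 in EB by peak number, and 7 and 5 by kilobases covered. Of 15 trophoblast genes, Gata3 and Ascl2 were ES-only and Tead4 and Krt7 EB-only, with 3 higher in ES and 1 in EB by peak number within 50 kb. Markers of fibroblasts, a cell type that could be carried along as feeders or arise in EB, were split as well. Of 13, Pdgfra was ES-only, Col1a2 and Dcn were EB-only, and Thy1 and Vim were marked in all 4 lists. Col1a2 had 1 and 1 peaks within 50 kb in ES and 5 and 4 in EB. Over the fibroblast list, 4 genes were higher in ES and 2 in EB by peak number, and 3 and 3 by kilobases covered. Among 16 housekeeping genes, Gapdh alone was stage-only, EB-only, with 0 kb under peaks in both ES lists and 8.69 and 4.63 kb in EB. Over the housekeeping list, 3 genes were higher in ES and 2 in EB by peak number, and 3 and 3 by kilobases covered. The part of cell mixture in these results was not tested.

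**Figure D4:**
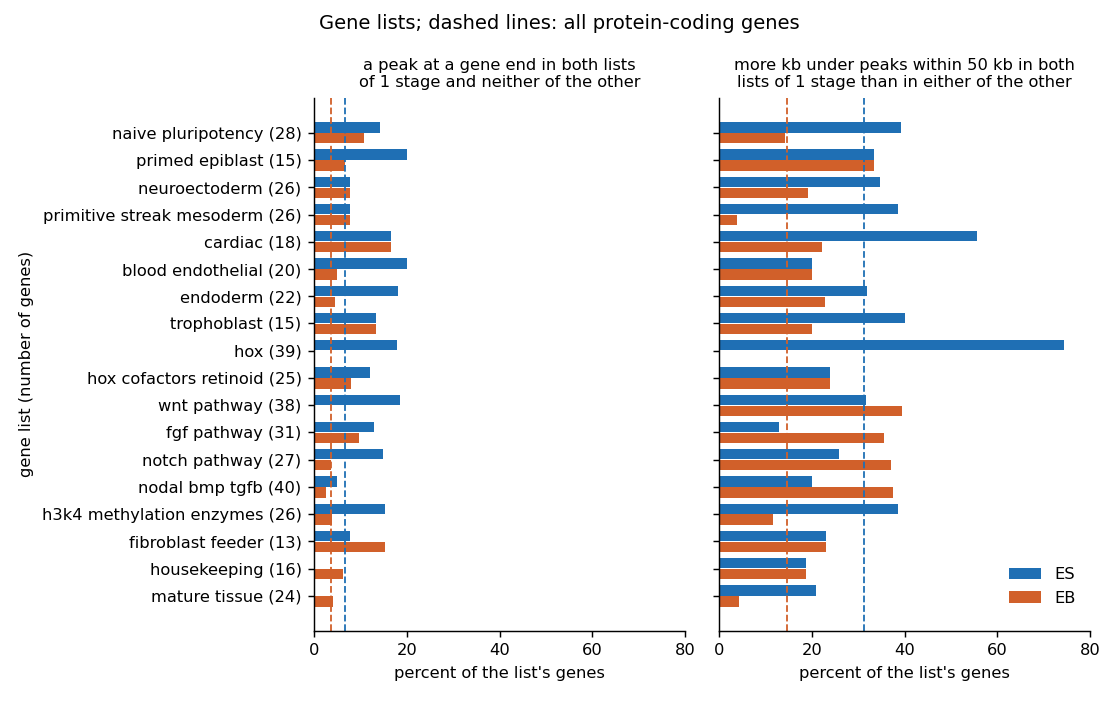
Percent of each list's genes (number in brackets) that were ES-only (blue) or EB-only (orange) at a gene end (left), or had more kilobases under peaks within 50 kb in both lists of one stage than in either of the other (right). Dashed lines give the same percentages over all protein-coding genes, 6.67 and 3.67 on the left and 31.2 and 14.6 on the right, and the Hox list reaches 74.4% for ES on the right and 0 for EB in both panels.

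Hox genes, which set position along the body axis, were marked in ES far more than in EB. Of 39, 7 were ES-only at a gene end (Hoxb4, Hoxb7, Hoxb8, Hoxc6, Hoxc10, Hoxc11 and Hoxd3) and 0 EB-only. Within 50 kb, 29 of 39 had more peaks in both ES lists than in either EB list and 0 the reverse. The same counts held by kilobases covered. Hox genes of a cluster share their neighbourhood, so these 39 are not independent and amount to 4 clusters. The Hoxb cluster had 26.0 and 16.0 kb under peaks in ES1 and ES2 and 2.73 and 3.67 kb in EB1 and EB2. The Hoxc cluster had 16.0 and 14.2 kb in ES and 2.97 and 0 kb in EB. In the Hoxd cluster the values were 18.6 and 11.9 kb in ES and 7.34 and 2.5 kb in EB. The Hoxa cluster stood apart, with 4.20 kb in ES1 and none in the other 3 lists. ES1 was above ES2 in all 4 clusters, and the stages did not overlap in Hoxb, Hoxc and Hoxd. In KO H3K4me1 lists, Hoxb had 8.06 and 17.1 kb in ES and 0 in both EB, and Hoxc 8.83 and 10.9 kb in ES and 0 in both EB. Hoxd had 11.1 and 3.74 kb in KO ES and 5.26 and 4.99 kb in KO EB, where the stages overlapped. At gene ends, Hoxc6 and Hoxd3 were ES-only in KO H3K4me1 too, and Hoxc10 had a peak in KO ES2 alone. Hoxb4, Hoxb7, Hoxb8 and Hoxc11 had none in any KO H3K4me1 list. In wild-type H3K4me2, Hoxb overlapped between stages, with 31 and 22.79 kb in ES and 15.78 and 22.85 kb in EB. Hoxa, Hoxc and Hoxd had more in both ES lists than in either EB list.

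**Figure D5:**
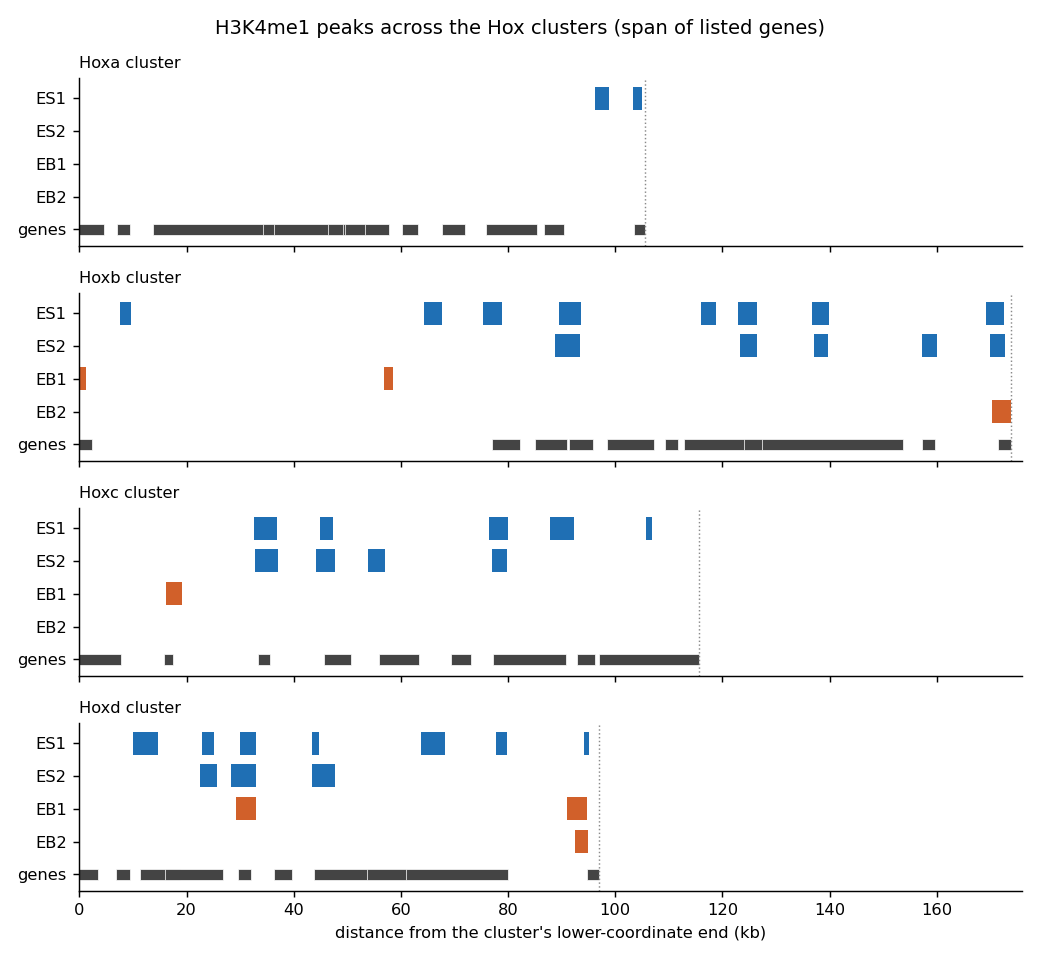
Peaks of the 4 wild-type H3K4me1 lists (ES blue, EB orange) along the Hox clusters, with gene spans in dark grey and the horizontal axis in kb from the lower-coordinate end of each cluster, whose other end is dotted. ES peaks are spread over Hoxb, Hoxc and Hoxd, the EB lists hold 0 to 2 peaks in each cluster, and Hoxa holds 2 peaks of ES1 alone.

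Hox partners and retinoic acid genes, 25 in number, had 3 ES-only, 2 EB-only and 3 genes in all 4 lists. Crabp1, a retinoic acid binding protein, Cyp26a1, an enzyme that degrades retinoic acid, and Nr2f2, an orphan nuclear receptor, were ES-only. Nr2f2 had 6 and 3 peaks within 50 kb in ES and 0 and 0 in EB. Meis3 and Rxrb, a retinoid X receptor, were EB-only. Meis3 had 0 and 0 peaks in ES and 2 and 3 in EB, and Rxrb had 0 and 0 in ES and 3 and 3 in EB. Within 50 kb, 5 of these 25 were higher in ES and 5 in EB by peak number.

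Of 38 Wnt pathway genes, 7 were ES-only at a gene end, 0 EB-only and 8 marked in all 4 lists. The ligands were Wnt1, Wnt9b and Wnt10a, the receptors Fzd7 and Fzd10, and the secreted inhibitors Sfrp2 and Sfrp5. Fzd7 had 5 and 4 peaks within 50 kb in ES and 0 and 2 in EB. Wnt10a had 9.83 and 12.4 kb under peaks in ES and 2.31 and 0.843 kb in EB. The neighbourhoods did not keep one direction. By peak number 13 were higher in ES and 4 in EB, and by kilobases covered 12 were higher in ES and 15 in EB. Among those higher in EB was Nkd1, an intracellular inhibitor of the pathway, with 0.6 and 0 kb in ES and 9.32 and 10.8 kb in EB. Of the genes ES-only at an end, Fzd10 and Sfrp2 were higher in EB by kilobases covered. Wnt1, Wnt9b, Wnt10a and Fzd7 were higher in ES, and Sfrp5 in neither.

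Of 27 Notch pathway genes, 4 were ES-only, 1 EB-only and 8 marked in all 4 lists at gene ends. The ES-only genes were the ligand Jag1, the Fringe glycosyltransferases Lfng and Rfng, and Maml2. Within 50 kb, 3 genes were higher in ES and 8 in EB by peak number, and 7 and 10 by kilobases covered. Maml3, a coactivator of the Notch transcription complex, had 3 and 4 peaks in ES and 15 and 14 in EB, or 4.1 and 5.78 kb against 56.9 and 41.3 kb. Maml2, of the same family, had 2 and 2 peaks in ES and 8 and 11 in EB, although its gene end was ES-only. The receptor Notch2 had 2 and 1 peaks in ES and 4 and 4 in EB, and the target Hes5 had 1 and 1 in ES and 4 and 3 in EB.

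Of 31 Fgf pathway genes, 4 were ES-only (Fgf3, Fgf15, Fgfr3 and the inhibitor Spry1) and 3 EB-only (Fgf6, Fgf9 and Dusp6, an ERK phosphatase). The receptor Fgfr3 had 6 and 5 peaks within 50 kb in ES and 0 and 0 in EB. By kilobases covered, Fgfr3 and Spry1 were higher in ES, whereas Fgf3 and Fgf15 were higher in EB. Fgf3 had 2.54 and 2.54 kb in ES and 5.56 and 9.47 kb in EB. Over the list, 3 genes were higher in ES and 5 in EB by peak number, and 4 and 11 by kilobases covered. Of 40 Nodal, BMP and TGF-beta genes, Id3 and the BMP antagonist Chrd were ES-only and Id2 EB-only. Id2 and Id3 encode related inhibitors of helix-loop-helix factors. Id2 had 6.62 and 5.32 kb under peaks in ES and 14.8 and 12.4 kb in EB, while Id3 had 7.86 and 8.55 kb in ES and 7.76 and 5.37 kb in EB. In this list, 8 genes had more kilobases covered in ES and 15 in EB. By peak number it was 7 and 5.

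Of 26 genes for H3K4 methyltransferases, demethylases and their partners, 4 were ES-only and 1 EB-only. Kmt2c and Kmt2d, the enzymes that write most H3K4me1 at enhancers, were both ES-only, with Ash2l, a core subunit of their complexes, and Smyd3. Setd1b was EB-only. In the KO H3K4me1 lists, Kmt2c and Ash2l had a gene-end peak in KO ES2 alone. Kmt2d, Smyd3 and Setd1b had none there. Every H3K4me2 list of both stages and genotypes had a peak at the ends of Kmt2d and Smyd3. The net of 3 more ES-only genes fell to 0 with the whole gene span or the higher-scoring 50% of each list. It stayed positive in the other alternatives. Kmt2c had 6 and 2 peaks within 50 kb in ES and 2 and 1 in EB. Prdm16 itself had 8 and 7 peaks in ES and 3 and 5 in EB, with kilobases that overlapped between stages. Within 50 kb, 7 genes of this list were higher in ES and 2 in EB by peak number, and 10 and 3 by kilobases covered.

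MicroRNA genes are too short for the gene-end counts and were placed by hairpin. Of 1005 hairpins, 72 and 52 lay under ES peaks and 47 and 32 under EB peaks, so that both ES lists held more than either EB list. The ES lists also covered more sequence, and the part of that in the hairpin numbers was not tested. In ES-only regions lay 23 hairpins (2.29%) and in EB-only regions 17 (1.69%). The ES-only set held the whole miR-302/367 cluster, microRNAs known for their high level in pluripotent cells, in 1 region inside Larp7, chr3:127544360-127546559, with scores of 79.58 and 114.44. That region was ES-only in KO H3K4me1 and wild-type H3K4me2 lists too, whereas in KO H3K4me2 both EB lists and 1 ES list had a peak there. The ES-only set also held Mir9-1 and Mir9-3, whose product acts in neural cells, Mir125b-1, and Mir10a, which lies in the Hoxb4 region. The EB-only set held Mir23a, Mir27a and Mir24-2 in 1 region, chr8:84207855-84209884, with scores of 54.62 and 85.66, and Mir200c, of an epithelial family, at chr6:124718194-124722123, with 88.24 and 84.7. No KO H3K4me1 list had a peak in the Mir23a region. Mature sequences of these (RefSeq, GRCm38.p6) are given with the seed, bases 2 to 8, in capitals.
miR-302b-3p: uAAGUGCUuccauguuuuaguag
miR-302d-3p: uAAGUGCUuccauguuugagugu
miR-302c-3p: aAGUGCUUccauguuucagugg
miR-367-3p: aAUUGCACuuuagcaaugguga
miR-9-5p: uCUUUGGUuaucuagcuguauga
miR-125b-5p: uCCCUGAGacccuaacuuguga
miR-10a-5p: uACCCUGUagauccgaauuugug
miR-23a-3p: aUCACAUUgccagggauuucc
miR-27a-3p: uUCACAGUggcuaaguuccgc
miR-24-3p: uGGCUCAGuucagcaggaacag
miR-200c-3p: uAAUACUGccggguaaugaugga

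Among the ES-only hairpins shown, miR-302b-3p and miR-302d-3p share the seed AAGUGCU, and miR-302c-3p, annotated from 1 base further on, has AGUGCUU. The others each have a seed of their own. A peak over a hairpin says nothing of the level of its product, which was not measured.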

How the data were processed

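Peak lists of CUT&RUN libraries were analysed, 1 per library, with intervals and a score that the authors deposited. No source used here gives the score's unit, and the lowest score in each wild-type H3K4me1 list was 50. Per the submitters' processing notes, the build was mm10, and MACS2, Bowtie2, HOMER 4.10, deepTools, bedtools and SAMtools 1.5 were used in roles not stated. Control libraries, duplicate removal and depth scaling: not given in the sources used here. Each list's 1 mitochondrial peak was set aside. Peaks overlapping by at least 1 bp were merged. Genes, promoters and microRNAs came from RefSeq tables of GRCm38.p6, which has mm10 coordinates. Strand and start were known for 79.9% of genes, so either gene end within 2500 bp was used, and exons, introns and UTRs were not resolved. Python 3.11.15, numpy 2.4.6, pandas 2.3.3 and scipy 1.17.1 were used, with matplotlib 3.10.9 for figures. The region merging and the stratified test were tested on simulated data.

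The regions, the 18 gene lists (437 genes) and the tests were chosen with earlier results of these data known. Named are genes of the lists, the 12 highest-ranked stage-only regions of each kind, and genes nearest to the most stage-only regions. A few genes that meet this rule are not reported here. Regions are not replicates, so their counts have no p. Exact permutation tests over libraries were two-sided. Alternatives were equal list lengths, the higher-scoring 50% of each list, scores of at least 100, other windows and distances, leaving out each library, merging within 1000 bp, all contigs, at least 50% of a region covered, and a block for the replicate number. Kilobases covered as the measure, the promoter counts and the microRNAs were chosen after seeing the data.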

Additional observations from a re-analysis of the deposited data

How the results depend on the processing

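Peak number gave a log2 difference of -0.10 to 0.18 between ES and EB with 1 library left out, reversing without ES replicate 1 (-0.10) and without EB replicate 2 (-0.01). The higher-scoring 50% of each list gave 2884 ES-only and 2511 EB-only regions and 763 ES-only and 513 EB-only genes. Scores of at least 100 gave 1826 and 1256 regions, where the mixed choices held 57 to 99. Shorter lists give fewer regions by construction. With 1 library left out, ES-only regions numbered 6131 to 10768 and EB-only 5104 to 9787, ES-only genes 1821 to 2729 and EB-only 1015 to 1671. Neighbourhoods higher in ES then numbered 5565 to 7137 and in EB 2842 to 3713, and by kilobases covered 6831 were higher in ES. The excess of ES-only regions at gene ends was 15.4 points within 10000 bp and 3.74 points at transcription starts. The preference of the other libraries was 91.6 points in H3K4me1 of the KO, 58.0 in wild-type H3K4me2, 49.4 in KO H3K4me2 (each exact permutation p = 0.333, the smallest possible) and 53.7 without the KO H3K4me1 libraries. The net of Wnt neighbourhoods, 9 more in ES by peak number, was -3 by kilobases covered. Of the 18 gene lists, 11 took both signs over the alternatives at gene ends and 7 in neighbourhoods, so small differences within a list carry no direction. For the 82 stage-only genes of the lists, 107 of 410 values with all 4 libraries kept no longer met the stage-only rule, and none had the opposite sign. Leaving out a library cannot end such a call by construction. The cause of these changes was not tested unless named.

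Replicate numbers are shared between stages, but deviations from the stage means did not go together (r = -0.01 over 33372 regions). Peak calls cannot tell whether libraries of equal number shared a culture or preparation, so whether the numbers pair libraries is unknown. As a replicate block, pair 1 alone gave 11883 ES-only and 10548 EB-only regions and pair 2 alone 9735 and 10202, since a region then needs 1 list. In pair 2 the EB-only regions were thus the more numerous, the reverse of pair 1 and of the main counts. The block left the preference at 66.3 points (exact sign-flip permutation p = 0.0312), and the other reported differences kept their direction.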

Other observations

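The balance of ES-only and EB-only regions varied over chromosomes. ES-only regions made up 53.6% of all stage-only regions, from 48.0% on chromosome 3 to 61.7% on chromosome 17, with 58.7% on chromosome 19 and 58.5% on chromosome 8. Chromosome X had 47 ES-only and 42 EB-only regions.

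Promoters under stage-only regions were searched on both strands for 4 short motifs, as a description. The octamer ATTTGCAT, bound by POU factors, was in 6 of 556 promoters under ES-only regions (1.08%), 8 of 379 under EB-only regions (2.11%) and 1.66% of all promoters. The motif AGATAA, of the kind bound by Gata factors, was in 7.01%, 8.71% and 9.65%. The motif ACAAAG, of the kind bound by Sox factors, was in 14.4%, 19.3% and 16.8%. The E-box CACGTG was in 9.53%, 6.60% and 7.84%.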
